A study of Mus musculus with 6 samples.

Results

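The clustered protocadherin interval is a 1 Mb stretch of mouse chromosome 18, chr18:36900001-37900000 in build mm10, that holds the Pcdha, Pcdhb and Pcdhg gene clusters. All 50 bp windows inside it with at least 1 read in any of 4 methylated-DNA libraries were taken, and a window not listed for a library was set to 0. This gave 2355 windows, of 2915907 windows on chromosomes 1 to 19. The other 102059 windows of chromosome 18 served as the comparison. The windows were chosen by position.

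The libraries came from microglia, the resident macrophages of the central nervous system, sorted on F4/80 and CD45. One condition was peak EAE (experimental autoimmune encephalomyelitis), a mouse model of multiple sclerosis. EAE was induced at 24 to 28 weeks of age with residues 35 to 55 of the myelin protein MOG. The other condition was naive, before induction. The mice were Ccr2rfp/+::Cx3cr1gfp/+ on a C57Bl/6 background, so 1 allele of Ccr2 carried a red and 1 allele of Cx3cr1 a green fluorescent reporter, and the labels make no difference between conditions in this. Cells of 30 mice were pooled per condition. The series' design text names brains, whereas the extraction protocol names brains and spinal cords. MiGS, which captures DNA fragments through a methyl-CpG binding domain before sequencing, was done in 2 libraries per condition, and RNA-seq in 1 library per condition. The labels call the MiGS libraries biological replicates without saying whether their animals differed, so p-values reflect only the spread among these 4 libraries, part of which may be technical.

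Clustered protocadherins are cell adhesion proteins best known from neurons, where single cells express different combinations of them. Each Pcdha and Pcdhg gene has its own promoter and a large variable first exon that is spliced to constant exons shared by its cluster, whereas Pcdhb genes consist of a single coding exon. C-type genes at the end of the Pcdha and Pcdhg clusters are used more uniformly across neurons than the other variable exons. In neurons, promoter methylation goes with a silent variable exon, and CTCF and cohesin bring active promoters to distant enhancers.

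A deposited MiGS value is a library's read count in a window divided by a size factor of that library. The size factors were 1.21 and 1.22 in the peak libraries (replicates 1 and 2), against 0.881 and 0.861 in the naive libraries. Values compared between conditions, also in statements on overlap, rest on this scaling. A ratio of the interval to the rest of the chromosome within a library does not. Summed over windows, the reads numbered 43970332 and 35285601 in the peak libraries (replicates 1 and 2), against 30424742 and 36501153 in the naive libraries. A fragment is counted in every window it touches, so these sums exceed the number of fragments. The libraries differed in how strongly signal was concentrated. Across the start segments of 58 protocadherin genes, described below with their values, the SD of log2 signal was 0.87 and 1.19 in the peak libraries, against 1.06 and 1.62 in the naive libraries. Naive replicate 2 therefore stood apart at high windows, and some of the main values are also given without it. Over 1113 windows of the interval with at least 20 reads, Pearson's r of log2 signal was 0.45 between the peak libraries and 0.66 between the naive libraries, and it ranged from 0.29 to 0.73 between conditions. Libraries of the same condition were thus not always the most alike.

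The interval carried about 3 times the signal of the rest of its chromosome in every library. Its mean value per 50 bp position was 0.804 and 0.895 in the peak libraries, against 0.932 and 1.61 in the naive libraries. On the rest of chromosome 18 the mean was 0.317 and 0.312 in the peak libraries, against 0.305 and 0.469 in the naive libraries. The interval was therefore higher by 2.53-fold and 2.87-fold at peak, and by 3.06-fold and 3.44-fold in the naive state. The mean log2 ratio was 1.56 ± 0.18 (SD, n = 4 libraries), or 2.96-fold, with p = 0.125 in an exact two-sided sign-flip permutation test, the smallest p that 4 libraries allow. Without naive replicate 2 the mean log2 ratio was 1.49.

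A larger covered share and higher values both went with that level. Of the 20000 window positions of the interval, 10.7% and 9.38% held a read in the peak libraries, against 9.39% and 9.15% in the naive libraries. The same share on the rest of the chromosome was 4.88% and 4.03% at peak, against 3.86% and 4.16% in the naive state. Among 86 complete 1 Mb bins of chromosome 18, the interval ranked 4 and 2 by signal in the peak libraries and 1 in both naive libraries. In all, 1441 of its windows held reads in all 4 libraries and 252 in only 1 library.

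The interval's excess over the chromosome could not be shown to differ between conditions with 2 libraries each. The log2 ratio of interval to rest was 1.34 and 1.52 in the peak libraries, against 1.61 and 1.78 in the naive libraries. The groups did not overlap, and the difference in means was -0.26 (1.43 ± 0.13 at peak and 1.70 ± 0.12 in the naive state, SD, n = 2 each). An exact two-sided permutation test gave p = 0.333, the smallest p that 2 against 2 libraries allow. Without naive replicate 2 the difference was -0.18.

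**Figure D1:**
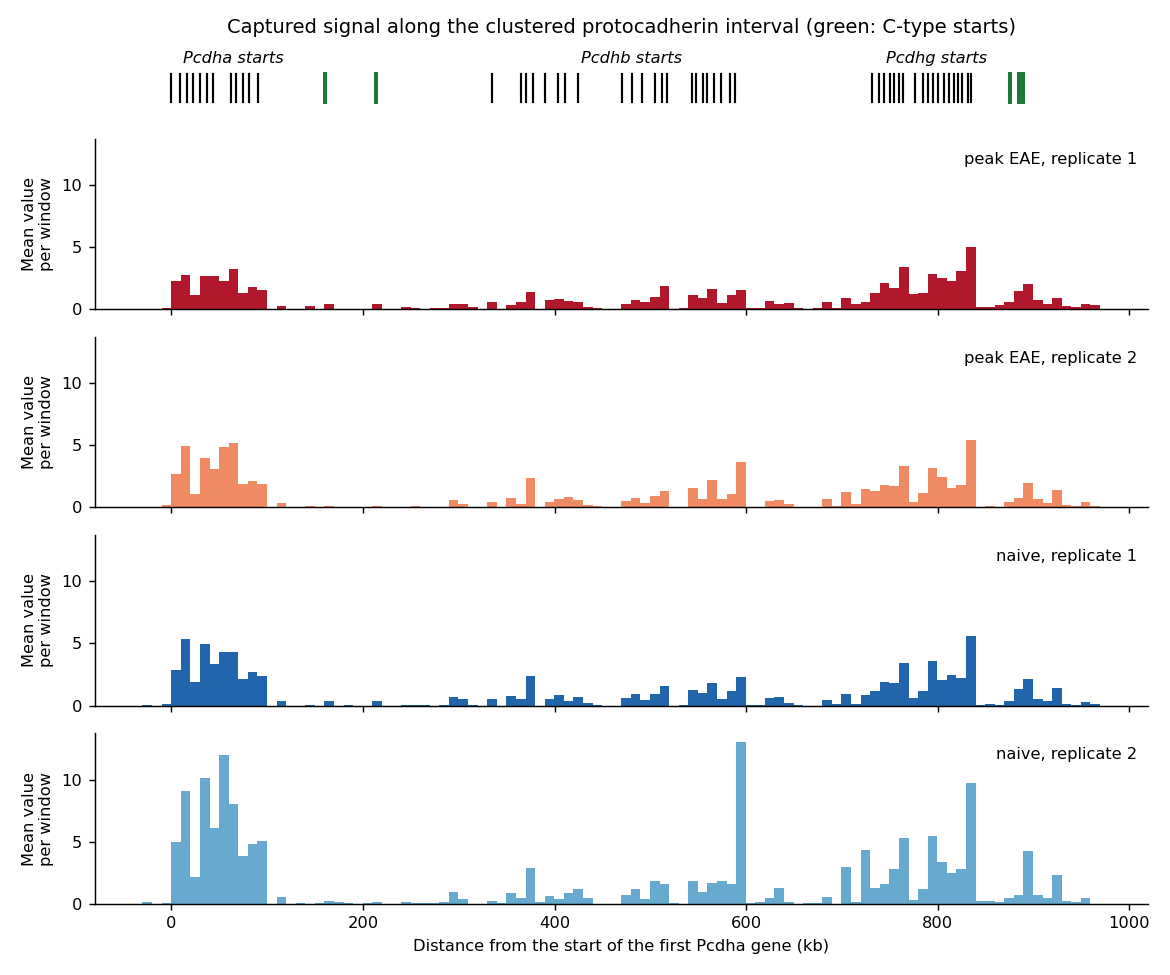
Mean deposited value per 50 bp window in 10 kb bins (bars) against the distance in kb from the start of the first Pcdha gene, with 1 panel for each library and the gene starts as ticks on top (green for C-type genes). Signal follows the starts of the 3 clusters, and the highest bar of naive replicate 2 lies just past the last Pcdhb gene.

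Within the interval most signal lay in the first part of each protocadherin gene, where its variable or single exon lies, and little lay upstream. The first 2500 bp of the 58 clustered protocadherin genes take up 14.5% of the interval. They held 73.7% and 74.0% of its signal in the peak libraries, against 77.4% and 67.8% in the naive libraries. In the 1000 bp before the starts, the signal per kb was 4.55 and 2.45 at peak, against 3.19 and 3.94 in the naive state, whereas in the first 2500 bp it was 81.8 and 91.4 at peak, against 99.5 and 151 in the naive state. Every library thus held many times more signal per kb after the start than before it. For 38 of 58 genes the upstream 1000 bp held no read in any library. MiGS signal grows with the number of methylated CpGs in a fragment, and CpG density was not analysed here, so a low value upstream does not tell unmethylated DNA from DNA with few CpGs.

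Averaged over the 12 Pcdha genes that are not C-type, signal was highest from 1250 to 1499 bp after the start in each library, with 12.4 and 26.0 per window at peak, against 24.4 and 62.4 in the naive state. In the other clusters the highest bin was not the same in each library. For the 22 Pcdhb genes it was 1750 to 1999 bp after the start in the peak libraries (7.53 and 10.4) and 1500 to 1749 bp in the naive libraries (9.31 and 15.9). In the 19 Pcdhg genes that are not C-type it was 750 to 999 bp after the start in replicate 1 of each condition (8.50 at peak and 9.17 in the naive state) and 1750 to 1999 bp in replicate 2 of each (10.7 at peak and 24.4 in the naive state). Nearer the start the libraries could lie closer together. From 250 to 499 bp after Pcdha starts they gave 3.31 and 2.75 at peak, against 3.44 and 4.98 in the naive state.

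**Figure D2:**
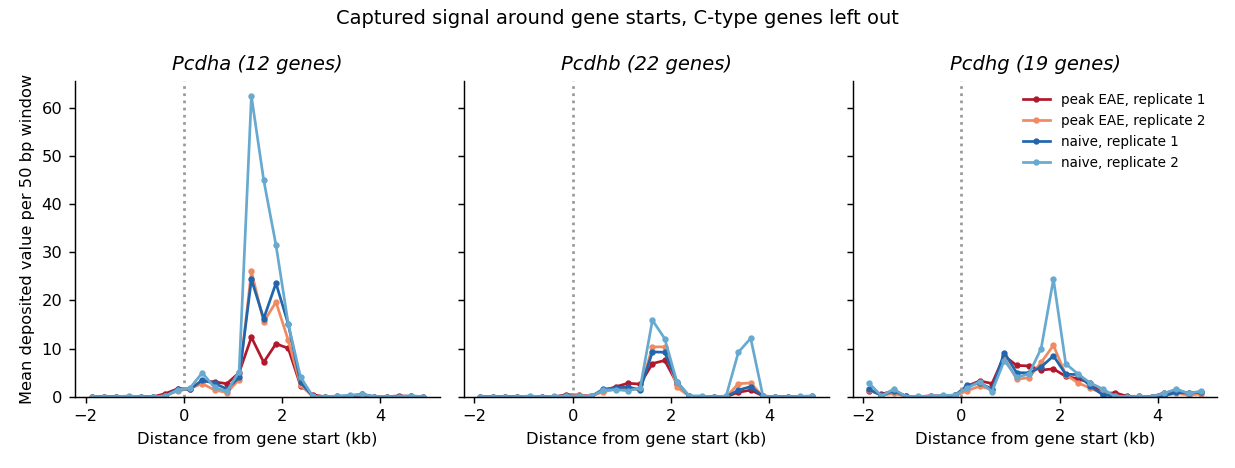
Mean deposited value per 50 bp window in 250 bp bins around the gene starts (dotted line), by distance in kb, for each cluster without its C-type genes, with 1 line per library. The libraries separate at the maxima, where naive replicate 2 reaches the highest value of each cluster, and the second Pcdhb rise near 3.5 kb includes the windows just past Pcdhb22.

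For each gene, signal was summed from 1000 bp before to 2500 bp after its start. These 3.5 kb start segments cover all 58 clustered protocadherin genes, and each passed the minimum of 20 reads over the 4 libraries. Their median was 203 and 189 in the peak libraries, against 193 and 256 in the naive libraries. The lowest segment held 21.5 and 14.7 at peak, against 19.3 and 17.4 in the naive state, and the highest 497 and 594 at peak, against 652 and 1199 in the naive state.

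**Figure D3:**
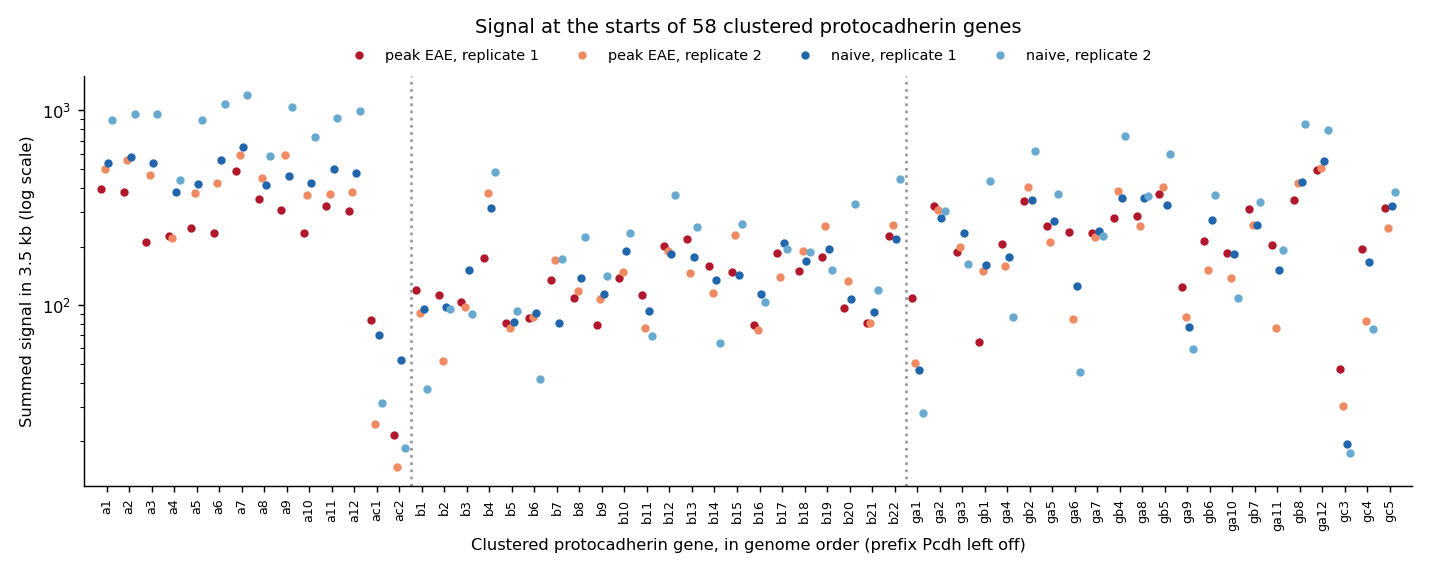
Summed signal of the 3.5 kb start segment (log scale) for 58 clustered protocadherin genes in genome order, with 1 point per library and dotted lines between clusters. Pcdha genes other than the C-type genes Pcdhac1 and Pcdhac2 are high in each library, with naive replicate 2 mostly above the others, whereas Pcdhb and Pcdhg points are more mixed.

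Pcdha starts carried the most signal, averaging 273 and 382 per segment in the peak libraries, against 432 and 767 in the naive libraries (14 genes). Pcdhb starts averaged 135 and 146 at peak, against 145 and 189 in the naive state (22 genes), and Pcdhg starts 243 and 220 at peak, against 244 and 326 in the naive state (22 genes). On the log2 scale the Pcdha mean exceeded the Pcdhb mean by 0.82 and 1.09 in the peak libraries, and by 1.42 and 1.78 in the naive libraries (2.42-fold over all 4). The Pcdha mean exceeded the Pcdhg mean by 0.08 and 0.65 at peak, and by 0.86 and 1.31 in the naive state (1.65-fold). The Pcdhg mean exceeded the Pcdhb mean by 0.74 and 0.44 at peak, and by 0.56 and 0.47 in the naive state (1.47-fold). Every library gave the same order. Each of these differences had p = 0.125, raw and adjusted over 5 such comparisons, in the exact sign-flip permutation test, again the smallest p that 4 libraries allow.

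Among Pcdha genes, Pcdha7 (chr18:36973811-37187663) had the highest mean, with 489 and 594 in the peak libraries, against 652 and 1199 in the naive libraries. Pcdha2 followed with 381 and 559 at peak, against 577 and 958 in the naive state. Pcdha9 had 307 and 590 at peak, against 461 and 1038 in the naive state. In Pcdha7 and Pcdha2 both peak values lay below both naive values, whereas in Pcdha9 the conditions overlapped.

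Pcdhac2 and Pcdhac1, the C-type genes of the cluster, were its lowest members. Pcdhac2 (chr18:37143678-37187663) had 21.5 and 14.7 at peak, against 52.2 and 18.6 in the naive state. Pcdhac1 had 83.6 and 24.5 at peak, against 70.4 and 31.4 in the naive state. Both overlapped between conditions. The next lowest, Pcdha4, had 228 and 220 at peak, against 379 and 438 in the naive state, and was higher than both C-type genes in each library.

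The C-type genes of the Pcdhg cluster did not form such a group. Pcdhgc3 (chr18:37806410-37841873) was the lowest Pcdhg member, with 47.2 and 30.2 at peak, against 19.3 and 17.4 in the naive state, both peak values above both naive values. Pcdhgc4 had 195 and 83.3 at peak, against 167 and 75.5 in the naive state. Pcdhgc5 had 315 and 248 at peak, against 322 and 380 in the naive state, above the Pcdhg average in each library. Over all 5 C-type genes the log2 mean minus that of the other Pcdha genes was -1.75 and -3.15 in the peak libraries, and -2.54 and -4.09 in the naive libraries. This comparison, a 7.37-fold difference over the 4 libraries, was chosen after the values were seen. It sets the Pcdhg members Pcdhgc3, Pcdhgc4 and Pcdhgc5 against Pcdha genes, so it also holds the difference between the clusters.

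Pcdhb genes ranged less widely. Pcdhb4 had the highest mean, with 175 and 376 at peak, against 317 and 486 in the naive state. Pcdhb22, the last gene of the cluster, had 226 and 257 at peak, against 219 and 444 in the naive state, and Pcdhb12 had 202 and 189 at peak, against 184 and 366 in the naive state. All of these overlapped between conditions.

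At the low end of that cluster, Pcdhb6 had 86.1 and 87.4 at peak, against 90.8 and 41.8 in the naive state. Pcdhb5 had 81.1 and 75.9 at peak, against 81.7 and 92.9 in the naive state, and Pcdhb1 had 120 and 91.4 at peak, against 95.4 and 37.2 in the naive state. Only Pcdhb5 of these kept its peak values below its naive values, by less than 1 unit between the closest libraries.

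Pcdhg genes alternate between the a and b subfamilies along the chromosome, and the b subfamily carried more signal. The 7 Pcdhgb genes averaged 275 and 311 at peak, against 308 and 565 in the naive state, and the 12 Pcdhga genes 238 and 192 at peak, against 225 and 228 in the naive state. The log2 difference of b over a was 0.15 and 0.86 in the peak libraries, and 0.65 and 1.80 in the naive libraries. This comparison was also chosen after the values were seen, and like the others it had p = 0.125 by the exact sign-flip permutation test.

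Pcdhga12, the last a gene, was highest in the Pcdhg cluster, with 497 and 507 at peak, against 551 and 790 in the naive state. Its neighbour Pcdhgb8 had 346 and 425 at peak, against 428 and 853 in the naive state, and Pcdhgb4 had 280 and 385 at peak, against 356 and 735 in the naive state. Of these, Pcdhga12 and Pcdhgb8 had both peak values below both naive values.

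Beside Pcdhgc3, the lowest Pcdhg genes were Pcdhga1 and Pcdhga9, in which both peak values lay above both naive values. Pcdhga1 (chr18:37661775-37841870) had 109 and 50.6 at peak, against 46.5 and 27.9 in the naive state. Pcdhga9 had 124 and 86.5 at peak, against 77.2 and 59.2 in the naive state. With Pcdhgc3 and Pcdhga2 they were the only 4 of the 58 genes in which this was so (6.90%, against 19.9% of all tested segments). That background share fell with the level of signal, to 1.63% in the highest decile of tested segments. Shares by decile are given below.

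The ends of the clusters that hold the constant exons differed. The last 2500 bp of Pcdha with 1000 bp beyond them held 16.6 and 14.7 at peak, against 2.27 and 1.16 in the naive state, where the naive values correspond to 2 reads and 1 read. These values are for the end of all Pcdha genes except Pcdha6. The annotation of Pcdha6 ends further on, at chr18:37188897, and the segment there held no read in any library. A segment of the same length at the end of Pcdhg held 82.8 and 104 at peak, against 103 and 143 in the naive state. Both ends were thus below the average start segment of their cluster in each library.

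Signal was also measured at the other annotated genes of the interval. All values are for segments of the same length at the lower-coordinate end unless stated. Slc25a2, which encodes a mitochondrial ornithine carrier, held 162 and 229 at peak, against 169 and 584 in the naive state. Taf7, which encodes a subunit of the general transcription factor TFIID, held 8.28 and 1.63 at peak, against 4.54 and 10.5 in the naive state, while its other end held 79.5 and 46.5 at peak, against 20.4 and 0 in the naive state. Diaph1, a formin gene that nucleates actin filaments, held 22.4 and 3.27 at peak, against 7.95 and 0 in the naive state, and no read at its other end in any library. Taf7 and Diaph1 were thus low at their lower-coordinate ends, whereas Slc25a2 was within the range of the Pcdhg starts in each library.

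The predicted genes Gm37013, Gm38666 and Gm38667 run from the starts of Pcdha4, Pcdha6 and Pcdha7 to the end of Pcdhg, and their start segments share the signal of those genes. The segment of the pseudogene Gm36858 overlaps that of Pcdha7, and the segment of Gm24401 that of Pcdhga6, so these segments are not counted apart. The segment at the other end of Gm36858 overlaps no protocadherin start segment. It held 174 and 314 at peak, against 308 and 847 in the naive state. The pseudogene Gm8242 held 90.3 and 284 at peak, against 160 and 868 in the naive state. The microRNA gene Mir6979 held 138 and 187 at peak, against 212 and 309 in the naive state. It lies inside Diaph1, whose whole annotated span, which runs past the interval, held 542 and 549 at peak, against 512 and 757 in the naive state. The segments of Gm18150, Gm18529 and Gm20162 overlap those of Pcdha11, Pcdhb4 and Pcdhb12. With the pseudogene Gm6756, these pseudogenes held at most 49.9 in any library at the lower-coordinate end. Gm19035 held no read, and Gm29994 held none at that end and 11.6 and 0 at peak, against 0 and 4.65 in the naive state, at its other end.

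Long unbroken stretches of captured DNA were concentrated in the interval. Adjacent windows with reads in all 4 libraries formed 48 runs of at least 500 bp in this 1 Mb, against 282 on the rest of chromosome 18, or 3.26 runs per Mb. Of the 48, 44 overlapped, in whole or in part, the start segments of 34 protocadherin genes, 2 lay in Gm36858 and 2 lay elsewhere. They were found in 12 of 14 Pcdha genes, all except Pcdhac1 and Pcdhac2, in 15 of 22 Pcdhb genes and in 7 of 22 Pcdhg genes. The longest measured 1350 bp, against 1950 bp on the rest of the chromosome.

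The run with the most signal lay between genes, within the span of the long predicted genes Gm37013, Gm38666 and Gm38667 only. It spans chr18:37521601-37522150, starting 182 bp past the annotated end of Pcdhb22, and its windows averaged 20.1 and 54.9 in the peak libraries, against 34.5 and 212 in the naive libraries. The window with the highest mean of the interval, chr18:37521801-37521850, is inside it, with 29.8 and 98.8 at peak, against 49.95 and 407 in the naive state. Naive replicate 2 alone supplied most of that mean. The other highest windows were in Gm36858 (31.5 and 87.4 at peak, against 65.8 and 229 in the naive state), Pcdha6 (13.2 and 71.9, against 59.0 and 225), Gm8242 (19.9 and 64.5, against 38.6 and 225) and Pcdha11 (23.2 and 46.5, against 44.3 and 166).

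No window or start segment of the interval passed the main test between peak and naive libraries, which did not pair libraries by replicate number. With the replicate number as a block some did, and those calls, which were not used, are given in the closing section. Limma on log2(value + 1) with Benjamini-Hochberg adjustment at 0.05 called 0 of the 1113 windows (0.0% of 936715 windows tested on chromosomes 1 to 19, in either direction), and the smallest adjusted p among them was 0.818. At an unadjusted p under 0.05 there were 51 of the 1113 windows, a share like that of all windows (42797 of 936715). Of the 51, 45 were lower at peak. The same split was not counted over all windows, so it is not read as particular to the interval. Limma also called 0 of the 58 segments (0.0% of 52300 segments at gene ends), with a smallest adjusted p of 0.882. At an unadjusted p under 0.05 there was 1 of the 58 segments, against 2718 of all 52300. On reads recovered from the deposited values, edgeR and DESeq2 without such a block called 0 windows and 0 segments of the interval as well. The count of windows rested on 1 library, since limma without naive replicate 1 called 11 windows higher (background 2.64%) and 16 lower (1.01%), which leaves a single naive library whose spread is assumed to equal that of the others.

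The 58 segments leaned to lower values at peak. The log2 change was negative in 44 of 58, against 45.6% of all tested segments, and the median was -0.35, against 0.10 over all segments. Without naive replicate 2 the lean was smaller, as 39 of 58 were negative and the median was -0.19, against 0.06 over all segments. With quantile normalization of the libraries the lean was not seen, as 21 of 58 were negative and the median was 0.20, against 0.035 over all segments. Both peak values lay below both naive values in 24 of 58 (41.4%, against 13.2% of all segments) and above them in 4 (6.90%, against 19.9%). Among windows, 287 of 1113 were wholly below (25.8%, against 18.7%) and 121 wholly above (10.9%, against 16.8%).

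That lean moved with the level of signal in all segments of the genome. In the lowest decile of tested segments by level the median log2 change was 0.91, and in the highest decile it was -0.70. The highest decile held 27 of the 58 protocadherin segments, whose median was -0.64. In it, 16 of these 27 (59.3%) were wholly lower at peak, against 28.8% of all segments of that decile, and 1 (3.70%) was wholly higher, against 1.63%. The next lower decile held 14, of which 4 (28.6%) were wholly lower, against 27.4%, and 0 wholly higher, against 7.67%. The decile below that held 12, of which 4 (33.3%) were wholly lower, against 19.8%, and 1 (8.33%) wholly higher, against 15.0%. What part the unequal concentration of signal between libraries had in the lean was not tested.

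**Figure D4:**
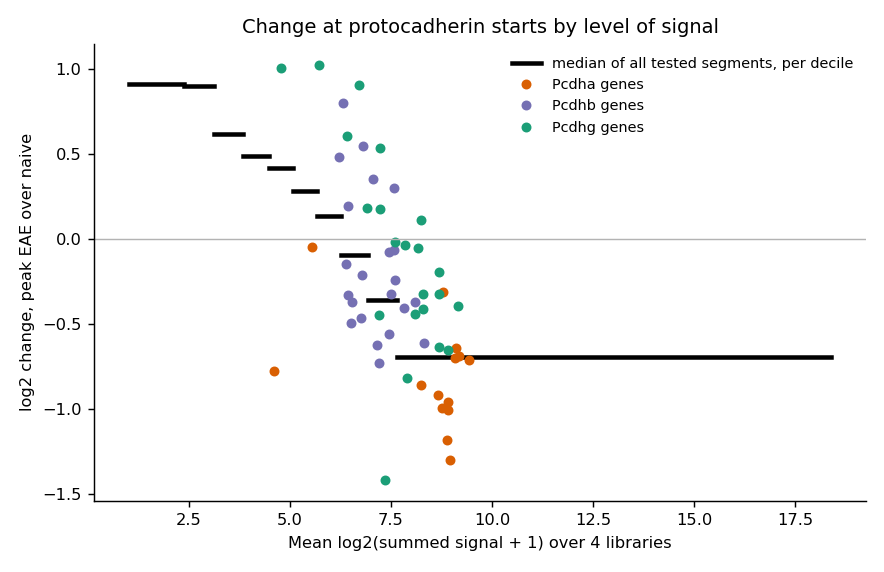
Log2 change of the start segment, peak EAE over naive, against the mean log2 signal of the 4 libraries, for 58 protocadherin genes (points, by cluster) with the median change of all tested segments in each decile of level (black lines). The medians run from 0.91 in the lowest decile to -0.70 in the highest, and most Pcdha points lie in the highest decile at or below its median.

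The clusters differed in their mean log2 change, without passing a test. Pcdha segments averaged -0.79 (p = 0.333 by exact two-sided permutation, the smallest possible). Their change was negative in 14 of 14, against 45.6% of all tested segments. In 10 of 14 (71.4%) both peak values lay below both naive values, against 13.2% of all segments and 28.8% in the highest decile of level. Without naive replicate 2 the Pcdha mean was -0.53, and with quantile normalization of the libraries it was -0.14. Pcdhb segments averaged -0.15, with 16 of 22 negative (p = 0.333), and Pcdhg segments -0.07, with 14 of 22 negative (p = 1 by the same exact permutation test). With quantile normalization these last means were positive, 0.12 for Pcdhb and 0.39 for Pcdhg, and the Pcdhg mean was also positive (0.070) without peak replicate 2. The difference between Pcdha and Pcdhb was smaller at peak than in the naive state by 0.64 on the log2 scale (p = 0.333 by exact permutation).

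The segments with the smallest p lay in the Pcdhg and Pcdha clusters. Pcdhgb1 had 64.6 and 150 at peak, against 161 and 437 in the naive state, a log2 change of -1.42 (SE 0.55, limma adjusted p = 0.882). Pcdha6 had 234 and 423 at peak, against 556 and 1084 in the naive state (-1.30, SE 0.78), and Pcdha3 had 212 and 469 at peak, against 536 and 961 in the naive state (-1.18, SE 0.77). In each, both peak values were below both naive values.

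In the other direction, Pcdhga1 had a log2 change of 1.03 (SE 0.62), with the values given above. Pcdhga6 had 237 and 84.9 at peak, against 125 and 45.3 in the naive state (0.90, SE 0.55), and Pcdhb1 had a change of 0.80 (SE 0.55). The conditions overlapped in Pcdhga6 and Pcdhb1. All 5 of these further segments had the same limma adjusted p of 0.882.

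At single windows the smallest p for a lower value belonged to a window 1663 bp after the Pcdha3 start, chr18:36947751-36947800, with 1.66 and 7.35 at peak, against 10.2 and 38.3 in the naive state (log2 change -2.16, SE 0.66). A window 1516 bp after the Pcdha1 start had 3.31 and 5.72 at peak, against 14.8 and 25.6 in the naive state (-1.93, SE 0.60). A window 2378 bp after the Pcdhga11 start had 4.97 and 3.27 at peak, against 13.6 and 19.7 in the naive state (-1.79, SE 0.59). All 3 lie in the first 2500 bp of their gene, and their conditions did not overlap.

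For a higher value, the smallest p belonged to a window in Taf7, chr18:37643351-37643400, with 12.4 and 13.9 at peak, against 2.27 and 0 in the naive state (2.97, SE 1.08). A window 700 bp after the Pcdhga6 start had 16.6 and 7.35 at peak, against 3.41 and 1.16 in the naive state (1.97, SE 0.80). A window that spans the Pcdhb13 start had 17.4 and 7.35 at peak, against 3.41 and 2.32 in the naive state (1.70, SE 0.70). These windows held at most 21 reads in a library, and like those above they had a limma adjusted p of 0.818.

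RNA-seq of the same sorted cells gave another readout of these genes, with 36561934 counts in the peak library and 31282093 counts in the naive library. With 1 library per condition there is no replicate check and no test, and intervals cover counting error only. In pooled cells, fewer cells of a type and less RNA per cell cannot be told apart.

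Pcdha genes had almost no RNA counts. They share constant exons and overlap the long predicted genes named above, so their RNA may be undercounted, which was not tested. Pcdhg genes, with the counts given below, have both features as well, and Gm37013 itself had 0 counts in each library. The 14 matched gene identifiers, which carry 13 Pcdha symbols and none for Pcdha10, summed to 17 counts in the peak library and 15 counts in the naive library, of which the C-type gene Pcdhac2 had 10 in each. Pcdhb RNA came mostly from 1 gene. The cluster had 414 counts at peak and 535 in the naive library, of which Pcdhb22 had 328 and 340, or 1.36 and 1.64 FPKM. Pcdhg RNA was the most abundant, with 4144 counts at peak and 7414 in the naive library, or 21.7 and 45.6 summed FPKM.

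**Figure D5:**
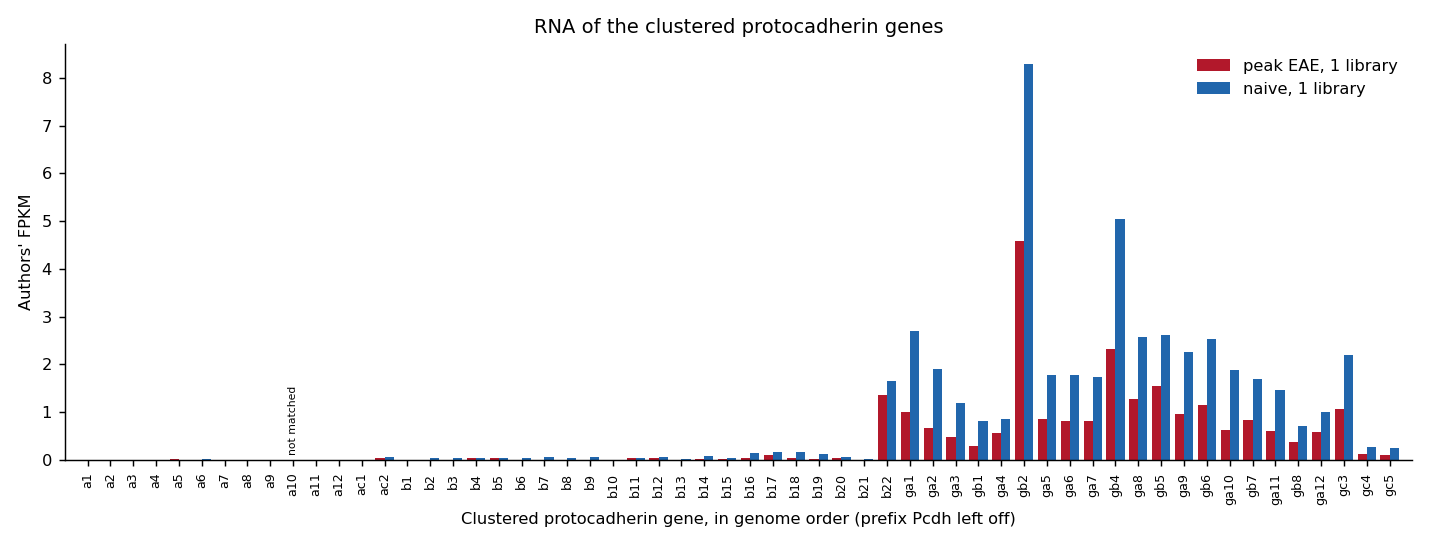
FPKM as deposited by the authors for the clustered protocadherin genes in genome order, in the peak EAE library and the naive library (bars, 1 library each). Pcdhg genes and Pcdhb22 hold nearly all of the RNA, and their bars are lower in the peak library.

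RNA of every Pcdhg gene was lower in the peak library. Of 23 clustered protocadherin genes that reached 50 counts in the sum of both libraries (22 Pcdhg genes and Pcdhb22), 11 were at least 2-fold lower and 0 at least 2-fold higher at peak. Among all 14367 such genes, 9.35% were at least 2-fold lower and 11.6% at least 2-fold higher. The median log2 ratio of the 23 was -0.997, against -0.003 over all genes. As that median sits at the 2-fold line, the count of lower genes moved with scaling, to 16 with library totals and to 8 with DESeq2 size factors, while all 23 ratios stayed below 0 under both. For 3 of the 11 the whole 95% Clopper-Pearson interval was beyond 2-fold.

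By counts, Pcdhgb2 led with 820 at peak and 1267 in the naive library (4.59 and 8.30 FPKM, 1.70-fold lower). Pcdhgb4 had 495 and 916 counts (2.33 and 5.04 FPKM, 2.03-fold lower), Pcdhgb5 379 and 553 (1.60-fold lower) and Pcdhga1 196 and 453 (2.54-fold lower), each with the peak library first. Pcdhb22, with the counts given above, lay between Pcdhgb5 and Pcdhga1 in this order. Genes past 2-fold were spread over the a, b and C-type members. Beside Pcdhgb4 and Pcdhga1 they were Pcdhga10 (2.84-fold lower), Pcdhga2 (2.65-fold), Pcdhgb1 (2.58-fold), Pcdhga3 (2.34-fold), Pcdhga11 (2.25-fold), Pcdhga9 (2.21-fold), Pcdhgc5 (2.18-fold), Pcdhga6 (2.07-fold) and Pcdhgb6 (2.05-fold). Since Pcdhg transcripts share their constant exons and variable exons resemble each other, the split of reads among these genes is uncertain.

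Of the neighbouring coding genes, Diaph1 was higher at peak and the others lower, by less than 2-fold. Diaph1 had 2920 counts at peak and 1297 in the naive library (log2 ratio 1.03, interval 0.94 to 1.13), and Taf7 had 947 and 1061 (-0.30). Slc25a2 had 21 and 34 counts (-0.82, interval -1.69 to -0.0048).

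Across the 22 Pcdhg genes, start segment signal and FPKM had a Spearman correlation of 0.14 at peak and 0.02 in the naive state, and across the 22 Pcdhb genes 0.33 in each. These are descriptions across genes that share libraries and are not independent. Pcdha thus combined the most captured signal with the least counted RNA, while within the Pcdhg cluster the order of signal bore little relation to the order of RNA.

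RNA of other cell types moved in the same libraries. Of 8 astrocyte markers, 6 were at least 2-fold lower at peak and Gfap was higher, and the summed level was 61.2 FPKM at peak, against 135 FPKM in the naive library. All 6 endothelial markers were at least 2-fold lower (11.6 FPKM at peak, against 27.7 FPKM), and of 7 measured oligodendrocyte markers 2 were lower (37.8 FPKM at peak, against 36.6 FPKM). Of 7 monocyte markers 6 were higher at peak (117 FPKM, against 7.05 FPKM in the naive library), as were all 4 measured T cell markers (3.69 FPKM, against 1.44 FPKM, with Cd3e at 2 counts and 0 counts).

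Neuron markers were low and level, with 0 of 6 measured past 2-fold in either direction and a sum of 2.25 FPKM at peak, against 2.37 FPKM in the naive library. The defining microglia markers were high in both, with 9569 FPKM at peak, against 15064 FPKM in the naive library, and 2 of 9 measured were at least 2-fold lower. What part these cell types had in the lower Pcdhg RNA was not tested.

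Genes that set DNA methylation or regulate clustered protocadherins mostly differed by less than 2-fold. Of 15 measured, 2 were at least 2-fold higher at peak and 0 lower, with a median log2 ratio of -0.02. Uhrf1, the partner of Dnmt1 in copying methylation after replication, had 1993 counts at peak and 79 in the naive library, and Mbd2, a reader of methylated CpGs, had 2414 and 935. Just short of 2-fold were Dnmt1, with 4460 and 2214 counts (log2 ratio 0.87), and Tet1, with 297 and 531 (-0.97). The de novo methyltransferase gene Dnmt3a (12.5 FPKM in each library), Ctcf (20.6 FPKM at peak and 22.2 FPKM in the naive library) and Smchd1 (11.9 and 10.1 FPKM), whose protein represses clustered protocadherin genes, were not past 2-fold.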

How the data were processed

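Per the labels' protocols, methylated DNA was enriched by MiGS, and RNA libraries used a stranded total RNA kit with ribosomal RNA depletion. The submitters' processing notes name build mm10, edgeR, Bowtie2, featureCounts and TopHat, with neither roles nor versions. In the deposited MiGS files the authors give 1 signal value for each 50 bp window. All values (100%, tolerance 0.001) were whole reads divided by a library's size factor. The deposited RNA table holds raw counts per Ensembl gene beside FPKM values by the authors, used here as levels only. The sources used here do not say whether counting used strand, so antisense and overlapping genes cannot be separated. Of its 42303 rows, 506 had no symbol (0.0647% of peak and 0.0573% of naive counts) and were not used.

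Gene positions came from a RefSeq table of the same build without strand. The start of a protocadherin gene was its lower coordinate, and other genes entered the fit with both ends. Windows and segments with at least 20 recovered reads were tested with limma 3.58.1 (variance trend, two-sided) on log2(value + 1), adjusted by Benjamini-Hochberg over chromosomes 1 to 19. Such fold changes understate low features. Count tests on recovered reads without a replicate block (edgeR 4.0.16 with TMM, DESeq2 1.42.0) called 0 of 1113 windows and 0 of 58 segments of the interval. RNA counts were scaled by TMM, with 0.5 added to each count, for genes with at least 50 counts. The fits across features were checked on simulated data. Other tools were R 4.3.3 and Python 3.11.15.

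Named with values are the 3 highest and 3 lowest genes per cluster, C-type genes, other annotated genes, the constant-exon ends, the 5 highest windows (windows within 1000 bp named once), the 3 smallest p in each direction, and in RNA the 5 genes with most counts and those past 2-fold. The 3.5 kb segments with the smallest p and Pcdhga2 were added after values were seen. The interval, its members, lists and rules were chosen with earlier results of these data known. No sequence is printed.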

Additional observations from a re-analysis of the deposited data

How the results depend on the processing

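The level of the interval over the rest of chromosome 18 stayed positive under the 13 alternatives, with a log2 ratio from 0.17 (mean of log2 values, mostly zeros) to 1.66. Against all other positions of chromosomes 1 to 19 it was 0.48, with 0.086 in peak replicate 1, and 1.48 without windows of over 2000 reads. Against the genes of chromosome 18 it was 1.12, and over windows with a read in at least 1 library 0.57. The difference between peak and naive stayed negative under 14 alternatives, from -0.36 to -0.01. With the replicate number as a block, limma called 1 window of the interval higher and 118 lower at peak (background 0.264% and 7.22%), and edgeR on recovered reads 2 higher and 81 lower (0.327% and 4.93%). The same block gave 8 segments lower with limma and 8 with edgeR (6.15% and 4.88%), and 0 higher with either. The labels do not say that a replicate number links libraries, and there are only 2 pairs, so these calls were not used. Deviations of same-numbered libraries correlated at 0.40 over all windows and 0.15 over all segments, and at 0.42 over the 1113 windows and 0.69 over the 58 segments of the interval. Leaving out a library gave 0 to 11 windows higher and 0 to 16 lower; 11 and 16 came without naive replicate 1 (2.64% and 1.01%), and the cause was not tested. The Pcdhb mean log2 change turned to 0.12 with quantile normalization and 0.78 with segments ending 500 bp after the start, where 36 of 58 genes reached 20 reads, and the Pcdhg mean to 0.39 with quantile normalization and, leaving out 1 library at a time, ranged from -0.22 to 0.070, the highest without peak replicate 2. The cause was not tested. The Pcdha mean stayed negative, from -1.05 to -0.14. The median change of all windows was -0.09, against 0.05 with edgeR's TMM scaling and 0.01 with DESeq2 size factors. Depth limits single windows: 1113 of 2355 reached 20 reads over the 4 libraries.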
